A study of Bos taurus with 40 samples.

Results

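The RNA of an ooplasm biopsy, a small volume of cytoplasm drawn from a bovine oocyte, was compared with the RNA of granulosa cells from the follicle that had held the same oocyte. The members were the libraries that carry the same follicle label in the biopsy and granulosa count tables, which gave 8 biopsies and 8 granulosa libraries, or 16 of the 40 samples of the series. In each cell type 4 follicles (B20, B21, D24 and D27) had an oocyte that later reached the blastocyst stage, and 4 (B14, B23, D10 and D29) had one that arrested at cleavage. Every sample is labelled diploid and no treatment beyond the cell type is given. Granulosa cells were taken from the follicle, and the biopsy was taken after in vitro maturation of the cumulus-oocyte complex, so cell type and time of collection cannot be told apart. The comparison was between cell types, averaged over both fates. A further 4 whole oocytes and 8 cumulus libraries, none of them among the 16, gave a second comparison of germ cell against somatic cell.

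The oocyte grows inside the follicle while it stores messenger RNA and protein for the first cell divisions of the embryo, and it is transcriptionally quiet by the time it completes maturation. Stored messages are kept dormant or are activated by changing the length of their poly(A) tails. Granulosa cells are the somatic cells that line the follicle: they divide, make steroid hormones under gonadotropin control, lay down a basement membrane and pass nutrients to the oocyte.

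Libraries held 15824594 to 21083300 counts in the biopsies and 9875695 to 17668403 in the granulosa cells, over 36824 annotated rows. Of these rows 2474 could be given a gene symbol, 952 of which were tested, and of 55 marker genes of follicular and blood cell types only H1FOO, the linker histone of oocytes, had a row under its name. The labelled granulosa identity could therefore not be checked against granulosa markers here, nor could the presence of theca, endothelial or blood cells. Biopsies resembled each other across rows, with a Pearson correlation of log2 levels of 0.827 to 0.889 over 28 pairs of libraries. Granulosa libraries were less alike, with 0.281 to 0.939. A biopsy correlated with its own granulosa library at 0.413 to 0.516 and with the granulosa cells of other follicles at 0.303 to 0.521. The first principal component, with 53.6% of the variance, separated the cell types, and the second, with 21.6%, spread the granulosa libraries, with B20 and D27 farthest out. How many granulosa cells went into a library is not stated, so in these bulk samples fewer cells and less RNA per cell cannot be told apart. The labels do not say whether each follicle came from its own animal, and p-values therefore cover only the spread among these libraries, which may be technical.

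Biopsies had 20164 ± 1447 rows with at least 5 counts (SD, n = 8) and granulosa cells 23504 ± 4536. The difference of -3339.75 rows did not pass an exact two-sided sign-flip permutation test over the 8 pairs (p = 0.0859, with 0.00781 the smallest possible). Without follicle B14 the difference was -4054 rows (exact permutation p = 0.0469). The gap lay in the blastocyst pairs, with means of 20600 rows in biopsies and 27544 in granulosa cells and no biopsy higher (exact permutation p = 0.125, the smallest that 4 pairs allow). In the cleavage pairs the means were 19728 and 19464 rows, and 2 of 4 biopsies were higher. The 10 most abundant rows took 6.75% ± 0.68 of the counts in biopsies and 9.5% ± 3.98 in granulosa cells (SD, n = 8), which also did not pass the test (exact permutation p = 0.0859). Granulosa library B20 had only 1.78% of its counts in those rows. Without that follicle the difference of -3.77 percentage points passed (exact permutation p = 0.0156), with every biopsy below its granulosa library. The 4 blastocyst granulosa libraries thus had more detected rows than any other library, and B20 and D27 stood apart most. Below, calls and list counts that change without these 2 follicles are given with and without them.

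**Figure D1:**
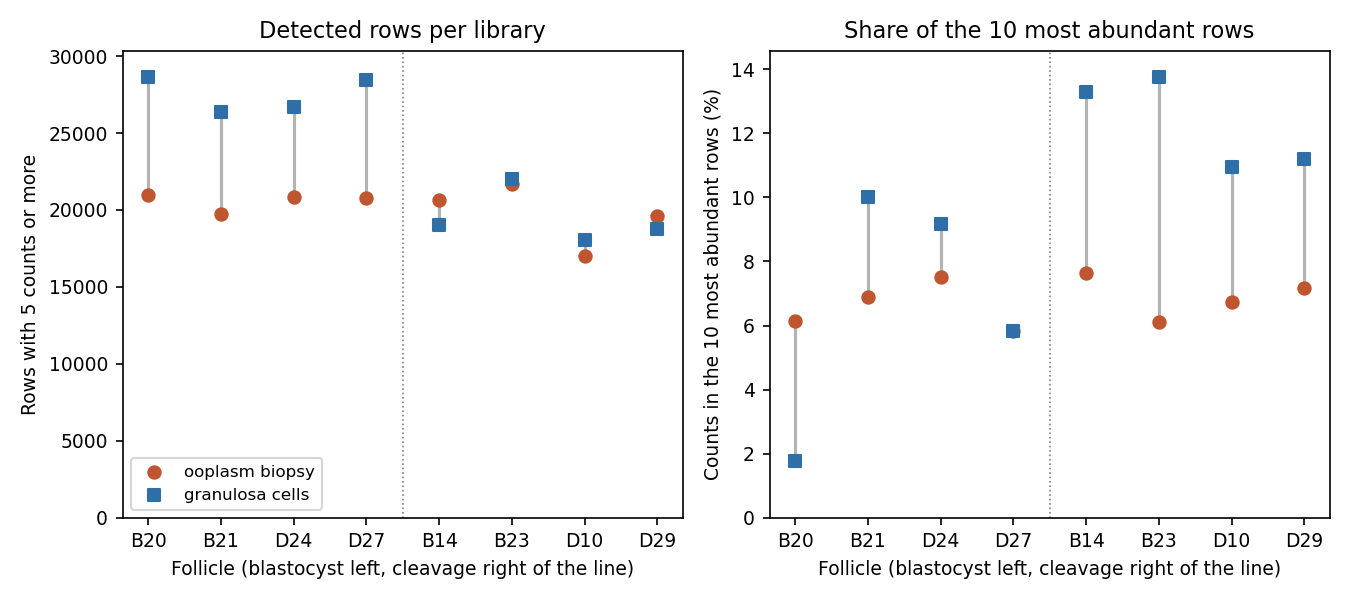
Number of rows with at least 5 counts (left) and percent of counts in the 10 most abundant rows (right), for the ooplasm biopsy (circles) and the granulosa cells (squares) of each of 8 follicles, 1 library per point, joined by follicle. Granulosa libraries of the blastocyst follicles reach 26370 to 28628 rows against 18064 to 22039 in the cleavage follicles, and granulosa library B20 has 1.78% of its counts in its 10 most abundant rows.

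Of 20210 rows tested, 10335 (51.1%) differed between the cell types at an adjusted p under 0.05 (edgeR quasi-likelihood test with the follicle as a block, Benjamini-Hochberg adjustment). In the biopsies 4477 rows (22.2%) were higher, and in the granulosa cells 5858 (29%). The 8 biopsies all lay above the 8 granulosa libraries in 2746 rows (13.6%), and all below them in 2437 (12.1%). The median log2 fold change over all tested rows, biopsies over granulosa cells, was -0.37 (-0.76 when libraries were scaled by their totals alone). Fold changes below are read against that shift. Among abundant rows the biopsies were more often the higher side: over 300 CPM (counts per 1000000, scaled between libraries by the TMM method) 61.4% of 515 rows were higher in biopsies and 22.3% in granulosa cells, against 17.9% and 36.9% of the 4897 rows between 10 and 30 CPM. The split by level was not repeated under other scalings. With a change of at least 4-fold asked for as well, 2980 rows (14.7%) were higher in biopsies and 4658 (23%) in granulosa cells. Without follicles B20 and D27 the counts of all calls were 4478 and 6066. With libraries scaled by their totals alone, 3622 rows were higher in biopsies and 6904 in granulosa cells. Counts of called members below are read against these shares of all rows.

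Genes of known oocyte function were among the 12 abundant named genes whose biopsies all lay above the granulosa cells. These genes were taken by level from rows that passed the test without overlap, so their direction is fixed by that choice. BCL2L10, an oocyte member of the BCL2 family of cell death regulators, had 1883, 2369 and 3159 CPM as its lowest, median and highest biopsy level, and 0.198, 0.768 and 1.85 CPM in granulosa cells. Its log2 fold change was 11.71 ± 0.60 (SE; edgeR adjusted p = 2.57e-07). All 8 granulosa libraries were near the bottom of the scale, blastocyst and cleavage alike. H1FOO ran from 861 to 1886 CPM in biopsies (median 1147) and from 0.267 to 22.4 CPM in granulosa cells (median 4.99), a log2 fold change of 8.53 ± 0.97 (edgeR adjusted p = 2.12e-05). Its granulosa levels were 4.71 to 22.4 CPM in the blastocyst follicles and 0.267 to 5.26 CPM in the cleavage follicles, so the marker of the oocyte was not at 0 in the granulosa cells, and B20 was the highest. Without B20 and D27 the log2 fold change was 9.39. CCDC201, a coiled-coil protein, had 390 to 708 CPM in biopsies against 0 to 3.58 CPM in granulosa cells, again highest in B20.

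The other genes of that group had varied functions. MAD2L1, which holds the spindle checkpoint until chromosomes are attached, had 487, 917 and 2138 CPM as lowest, median and highest in biopsies and 58.5, 153 and 310 CPM in granulosa cells, a log2 fold change of 2.61 ± 0.41 (edgeR adjusted p = 0.000224). Biopsies differed more than 4-fold among themselves, with D27 highest and D24 lowest, yet the groups did not overlap. PCBP1, which binds poly(C) stretches of RNA, ran from 657 to 1210 CPM in biopsies and from 5.84 to 115 CPM in granulosa cells, with B20 far below the other granulosa libraries. Its log2 fold change was 4.07, and 3.41 without B20 and D27. MPP5, a scaffold of cell polarity complexes, had medians of 838 and 47.8 CPM, and FAM161A, a centrosome and cilium protein, 789 and 23.2 CPM. TMEM159, which takes part in lipid droplet formation, had medians of 505 and 14.8 CPM, and the kinase TNIK 567 and 135 CPM. RAMMET had medians of 1090 and 46.2 CPM. ATE1OS, annotated opposite the gene ATE1, had 553 and 13.2 CPM, and whether counting used strand is not given in the sources used here, so its reads and those of ATE1 cannot be told apart.

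Chromatin, matrix and secreted products were among the 12 abundant named genes whose granulosa libraries all lay above the biopsies, chosen in the same way. H2AFZ, which encodes the histone variant H2A.Z, had 132, 931 and 1558 CPM as lowest, median and highest in granulosa cells and 0, 2.14 and 10.5 CPM in biopsies, a log2 fold change of -8.77 ± 1.12 (edgeR adjusted p = 5.14e-05). Granulosa library B20 was the lowest by far, and still above every biopsy. XIST, the RNA that coats the inactive X chromosome, ran from 91.8 to 1316 CPM in granulosa cells (median 977) and from 0.26 to 3.99 CPM in biopsies (median 0.687), a log2 fold change of -9.75 ± 0.92 (edgeR adjusted p = 5.77e-06). NMB, the precursor of the peptide neuromedin B, had medians of 594 CPM in granulosa cells and 0.764 CPM in biopsies. C11H2orf40, which encodes a secreted peptide precursor, had 252 and 0.158 CPM, with a range of 20.6 to 904 CPM among granulosa libraries.

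COL4A4, a basement membrane collagen chain, had medians of 605 CPM in granulosa cells and 6.96 CPM in biopsies, a log2 fold change of -6.61 ± 0.61 (edgeR adjusted p = 5.16e-06). FAM129A had 354 and 13.3 CPM and AKAP2, which anchors protein kinase A, 172 and 5.4 CPM. H2AFV, the second H2A.Z gene, had 186 and 24 CPM. Of the other 4, COL21A1 had medians of 255 and 30 CPM, FBXL7, an F-box protein, 194 and 24.1 CPM, the aminopeptidase gene C8H9orf3 179 and 33.6 CPM, and the adhesion protein MDGA2 300 and 122 CPM. Library B20 had the lowest granulosa level of H2AFZ, XIST, NMB, COL4A4, FAM129A, C11H2orf40, COL21A1, H2AFV and AKAP2. Its part in these fold changes was measured by leaving out B20 and D27: H2AFZ then had a log2 fold change of -9.84, XIST -10.21 and COL4A4 -7.30.

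A limit of the tables touches every gene that is high in granulosa cells. The rows of the NONCODE annotation, which were left out, held 4.74% to 7.20% of the counts of each biopsy library, but only 6 of these 22227 rows had a count in any granulosa library. The cumulus table is as empty in these rows. How many named genes overlap such a row, and to which row the reads of the overlap were counted in each table, was not tested.

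**Figure D2:**
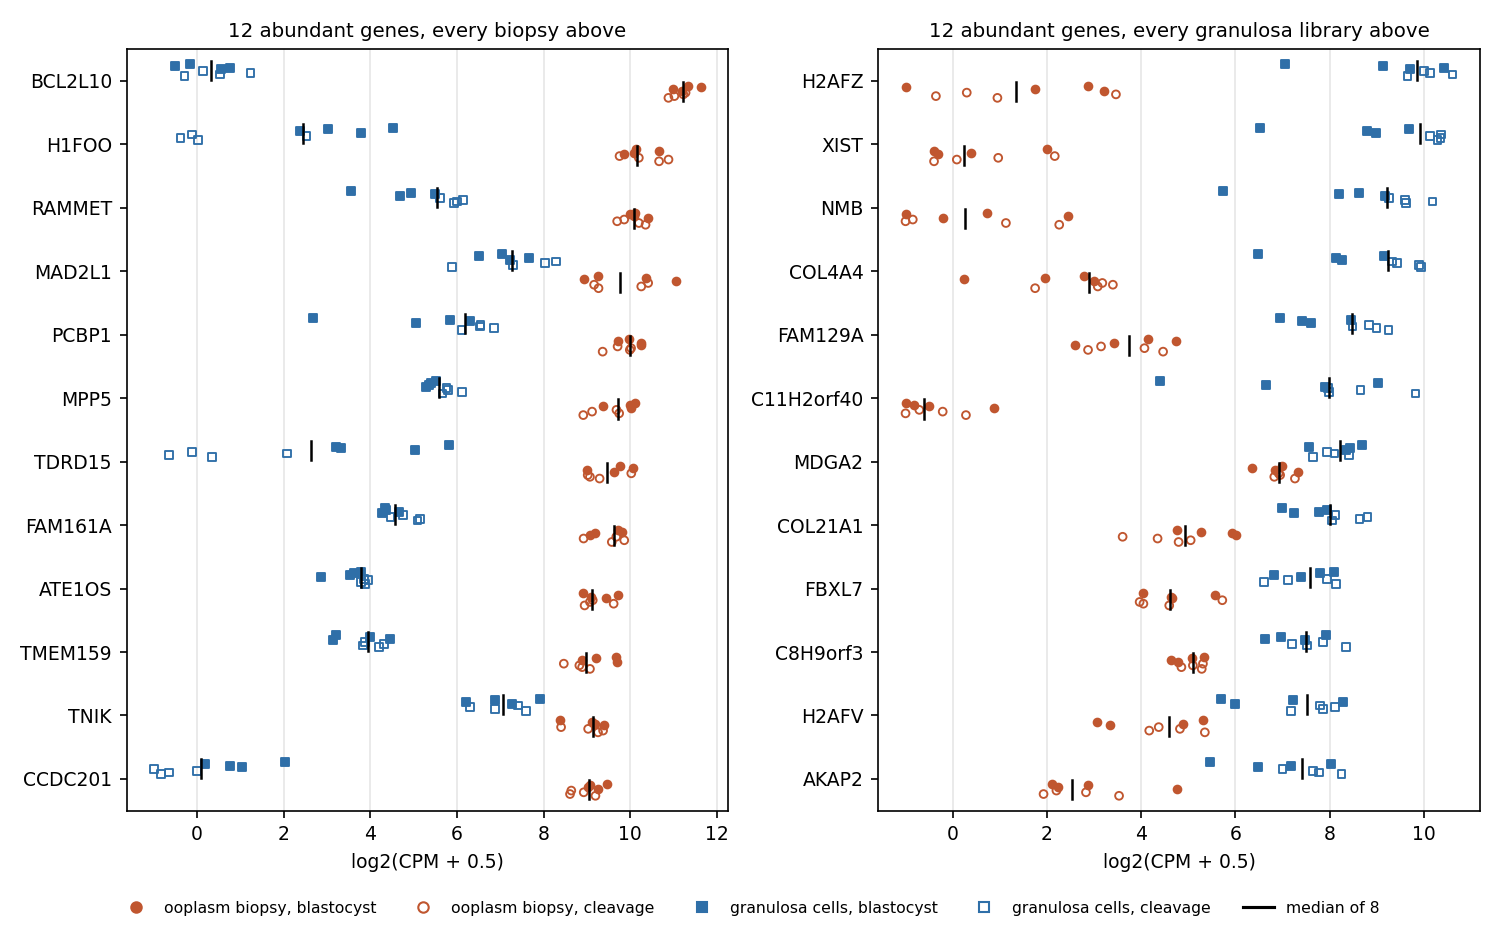
Level in each library, as log2(CPM + 0.5), of the 12 abundant named genes with every biopsy above (left) and the 12 with every granulosa library above (right). Circles are biopsies and squares granulosa cells, filled for blastocyst and open for cleavage follicles, with 8 libraries per cell type, and bars mark medians. Granulosa library B20 is the low square of H2AFZ (132 CPM), XIST (91.8 CPM) and PCBP1 (5.84 CPM).

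Few genes that the oocyte stores for the embryo could be tested. Of 47 listed maternal effect genes only 6 had a row under their symbol, and the list was drawn up with earlier results of these data known. Of these 6 genes 5 were higher in biopsies without overlap and none was higher in granulosa cells. Their median log2 fold change was 7.12, against -0.37 over all rows. Among them are H1FOO and BCL2L10, described above with the genes chosen for that direction. TCL1B, a coactivator of the AKT kinase, ran from 23.8 to 101 CPM in biopsies and from 0 to 1.22 CPM in granulosa cells, a log2 fold change of 8.65 ± 0.99 (edgeR adjusted p = 2.17e-05). SOHLH1, a transcription factor of early oocyte growth, had 1.58 to 21.6 CPM in biopsies and 0 to 0.836 CPM in granulosa cells. NSMCE3, a subunit of the SMC5/6 chromosome complex, had medians of 66.1 and 11.2 CPM. FAM208A, which belongs to the HUSH complex that keeps transposons silent, overlapped, with 165 to 265 CPM in biopsies and 40.3 to 239 CPM in granulosa cells, and did not pass the test (log2 fold change 0.71, edgeR adjusted p = 0.119).

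Of 14 tested germ cell and meiotic genes 7 were higher in biopsies, 1 was higher in granulosa cells and 6 did not pass, with a median log2 fold change of 2.75. Without B20 and D27 these counts were 9 higher in biopsies and 2 in granulosa cells. TDRD15, a Tudor domain protein, had 512, 704 and 1071 CPM as lowest, median and highest in biopsies. In granulosa cells it had 8.75 to 55.5 CPM in the blastocyst follicles and 0.133 to 3.70 CPM in the cleavage follicles. RNF17, a Tudor and RING domain protein of germ cells, had 47.6 to 97.3 CPM in biopsies, 9.32 to 54.9 CPM in blastocyst granulosa libraries and 0.952 to 3.91 CPM in cleavage granulosa libraries. The 2 sets of granulosa libraries did not overlap for either gene.

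SYCP2L, a synaptonemal complex protein of oocytes, behaved alike, with 19.6 to 89.8 CPM in biopsies and up to 41.3 CPM in granulosa library B20. Its log2 fold change was 2.77 ± 0.85 (edgeR adjusted p = 0.0167) over all pairs and 3.61 without B20 and D27. MORC1, a germline repressor of transposons, had a median of 51.1 CPM in biopsies and 6.97 CPM in granulosa cells, where B20 reached 80.5 CPM, about the highest biopsy level of 80.9 CPM. MORC1 did not pass over all pairs (log2 fold change 3.01, edgeR adjusted p = 0.0527) and passed without B20 and D27 (4.38, edgeR adjusted p = 0.0087). The meiotic genes MAJIN, C10H14orf39 and CCDC36, which act in telomere attachment, in the synaptonemal complex and in the formation of DNA breaks, were higher in biopsies with log2 fold changes of 4.72, 4.58 and 2.74. C8H9orf84, the cattle row of a crossover factor, went the other way. It had 8.08 to 202 CPM in granulosa cells and 0.0704 to 2.18 CPM in biopsies, a log2 fold change of -5.79 ± 1.04 (edgeR adjusted p = 0.000637). What the higher levels of TDRD15, RNF17 and MORC1 in blastocyst granulosa libraries owe to their larger number of detected rows was not tested.

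Histone genes divided between the cell types within each family. Of 8 tested linker histones 4 were higher in biopsies (H1FOO, HIST1H1A, HIST1H1E and HIST1H1C) and 3 in granulosa cells (H1F0, H1FX and HIST1H1B), with a median log2 fold change of 0.56. HIST1H1A ran from 162 to 405 CPM in biopsies and from 0 to 5.80 CPM in granulosa cells, a log2 fold change of 8.87 ± 0.87 (edgeR adjusted p = 7.70e-06). HIST1H1E had medians of 102 and 23.7 CPM and HIST1H1C 74.4 and 22.3 CPM, with the groups overlapping. H1F0, the linker histone of differentiated cells, had 2.45 to 12.2 CPM in biopsies and 5.44 to 34.5 CPM in granulosa cells. HIST1H1D did not pass, with medians of 22.7 and 59.6 CPM (log2 fold change -0.93, edgeR adjusted p = 0.071), and passed without B20 and D27 (-1.45, edgeR adjusted p = 0.0021).

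Of 41 tested core histones 13 were higher in biopsies and 12 in granulosa cells, with a median of -0.02 (11 and 12 without B20 and D27). Of the 13 higher in biopsies 12 were clustered histone genes, such as HIST1H2AH with 79.4 to 234 CPM against 0.133 to 5.36 CPM (log2 fold change 6.99), HIST2H2BF (5.11), HIST2H2AC (3.46), H4C14 (1.81) and H4C1 (1.56). Whether the poly(A) tail of a message affected its count was not tested, for these genes or for other stored messages. HIST2H2AA4 and HIST1H2AK, with 68 and 67.9 CPM in biopsies, had almost the same values in each library and may share reads. The same may hold for the linker histone HIST1H1D and for H4C19, which was called higher in granulosa cells. Their biopsies had 234 to 814 and 234 to 830 counts. Of the 12 higher in granulosa cells 7 were clustered genes, such as HIST3H2A (-6.59) and HIST2H2BE (-2.95). The 5 others, the replacement variants H2AFZ, H2AFV, H2AFJ, H2AFY and H2AFY2, did not overlap with the biopsies. Their log2 fold changes were -8.77, -2.94, -8.75, -2.48 and -5.92. H2AFX, the variant phosphorylated at DNA breaks, was higher in biopsies (2.67). The clustered H4C4 row was at 3 counts in all biopsies together and 1613 in the granulosa cells, a ratio of 511 (95% counting interval 174 to 2479, exact). The genes of the variant H3.3 did not pass. H3F3B had 1398, 1697 and 2261 CPM in biopsies and 144, 1721 and 3554 CPM in granulosa cells, and H3F3A 512, 738 and 921 CPM against 53.9, 505 and 1003 CPM. For both genes B20 was the lowest granulosa library and D10 the highest, and the biopsies lay between them.

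**Figure D3:**
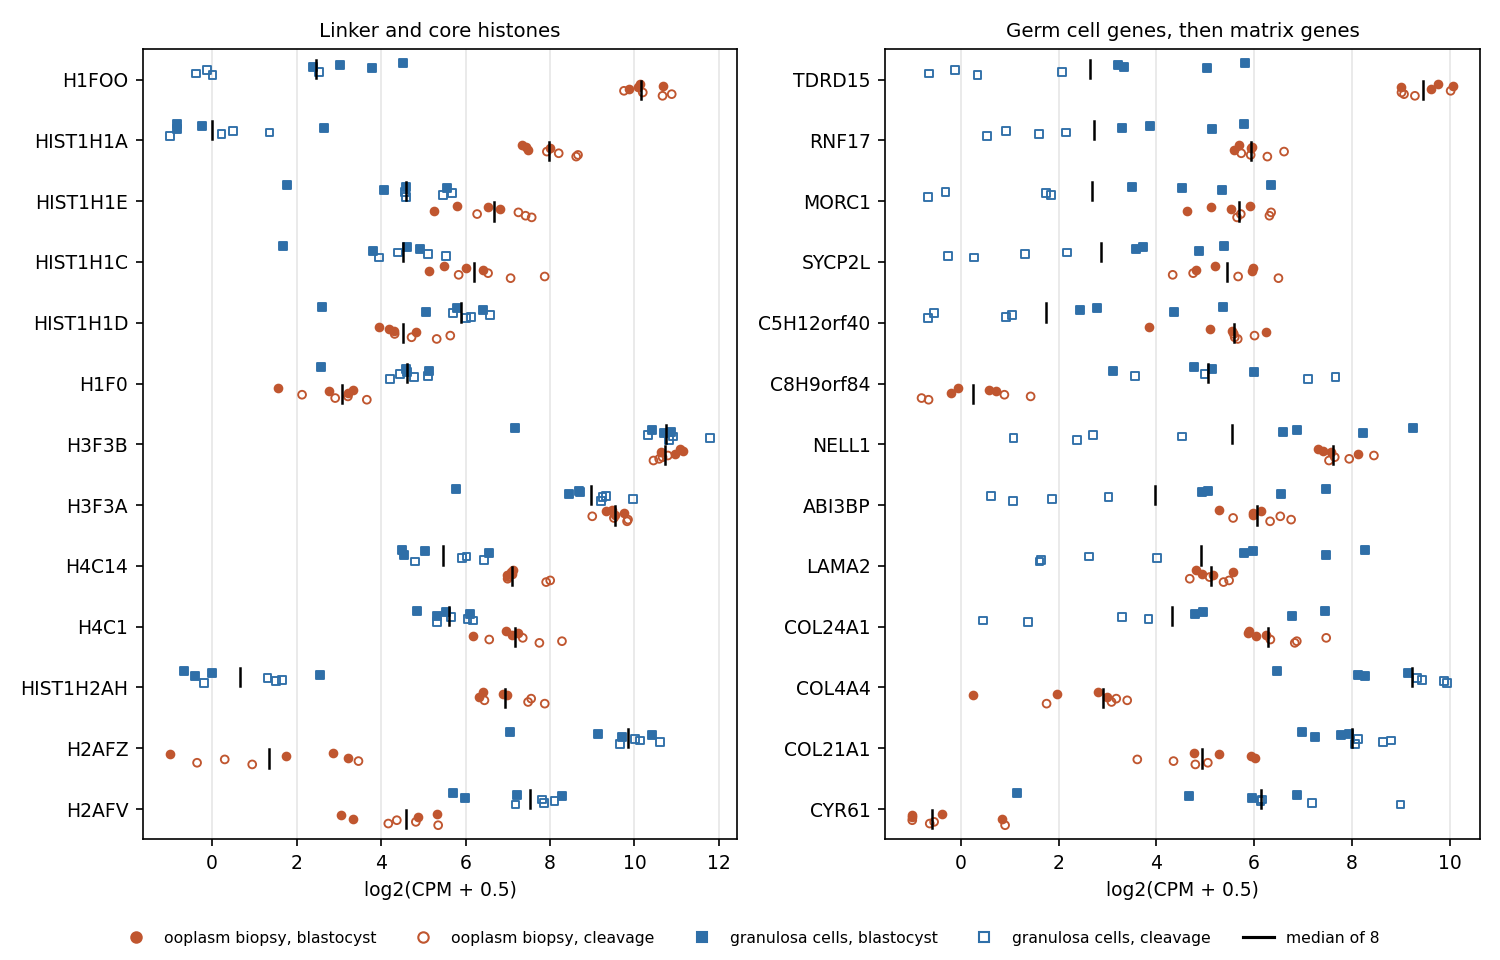
Level in each library, as log2(CPM + 0.5), of 13 linker and core histone genes (left) and of 6 germ cell genes followed by 7 matrix genes (right), with circles for biopsies and squares for granulosa cells, filled for blastocyst and open for cleavage follicles, and bars at the medians of 8. TDRD15, RNF17, MORC1, NELL1, ABI3BP and LAMA2 have filled squares to the right of all open squares, as in NELL1 with 95.3 to 613 CPM against 1.60 to 22.5 CPM.

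Poly(A) tail factors were uneven. Of 8 tested genes of RNA tailing and deadenylation 4 were higher in biopsies and 1 in granulosa cells, with a median log2 fold change of 1.25. FAM46B, a cytoplasmic poly(A) polymerase, had 248, 315 and 539 CPM as lowest, median and highest in biopsies and 0, 0.358 and 1.29 CPM in granulosa cells, a log2 fold change of 9.59 ± 0.66 (edgeR adjusted p = 7.99e-07). PAPD4, the polymerase known as GLD-2 that lengthens tails of stored messages, had 222 to 415 CPM in biopsies and 26.8 to 178 CPM in granulosa cells, a log2 fold change of 1.96 ± 0.34 (edgeR adjusted p = 0.000469). PAPD7, a non-canonical polymerase that can add mixed tails, had medians of 239 and 11.3 CPM, and its relative PAPD5 overlapped with 24 and 31 CPM. PABPC1L, the poly(A)-binding protein of oocytes, had medians of 14.4 and 2.57 CPM (log2 fold change 2.94). The uridylyl transferases differed from each other: ZCCHC11 was lower in all 8 biopsies than in the granulosa cells of the same follicle, with medians of 60.8 and 126 CPM, while ZCCHC6 did not pass, with 76.4 and 44.8 CPM. Pairs of 1 fate were also fitted and scaled alone, with a median log2 fold change over all rows of -0.64 in the blastocyst and -0.16 in the cleavage pairs against -0.37 over all pairs, so fold changes of a fate group are read against its own median. ZCCHC11 had a log2 fold change of -0.95 (edgeR adjusted p = 0.0146) over all pairs, 0.09 in the blastocyst pairs and -1.37 in the cleavage pairs. Its positive blastocyst value arose under that separate scaling, since on the common scale all 4 blastocyst biopsies were below their granulosa libraries.

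Factors that silence retroelements mostly did not pass. Of 6 tested members 1 was higher in biopsies, FAM208B, a relative of FAM208A (log2 fold change 0.83, edgeR adjusted p = 0.038), with a median of 0.34 over the list. REST, a repressor of neural genes, had a log2 fold change of -0.03 over all pairs and 1.61 in the blastocyst pairs alone. Without B20 and D27 FAM208B did not pass (0.48, edgeR adjusted p = 0.167), MORC1 passed as higher in biopsies and KIAA1551, a protein that recruits repressive chromatin, as higher in granulosa cells (-0.68, edgeR adjusted p = 0.0459). Of 3 tested ATP synthase subunits ATP5MPL was higher in granulosa cells (-2.86), joined by ATP5MD without B20 and D27. A list of genes entered under older symbols had 4 tested members, MKL1, MKL2, NARFL and TROVE2. Of these TROVE2 (-3.04), which binds small noncoding RNAs, and MKL2 (-1.67), a coactivator of serum response factor, were higher in granulosa cells.

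Matrix genes varied. Of 12 tested collagen chains 3 were higher in granulosa cells (COL4A4, COL21A1 and COL9A2) and none in biopsies, with a median log2 fold change of -0.98. Over all rows tested 29% were higher in granulosa cells and 22.2% in biopsies. Without B20 and D27 the collagen counts were 3 in granulosa cells and 1 in biopsies, with a median of -0.08. In the cleavage pairs alone they were 2 and 2, with a median of 1.21. CYR61, a matricellular protein induced by growth and stretch, had 1.73, 70.4 and 511 CPM as lowest, median and highest in granulosa cells and 0, 0.161 and 1.37 CPM in biopsies, a log2 fold change of -8.37 ± 1.07 (edgeR adjusted p = 5.02e-05). NOV, of the same family, was also higher in granulosa cells (-5.30), and WISP3 was higher in biopsies with 20.9 to 50.4 CPM against 0.794 to 7.5 CPM. CTGF ran from 0.73 to 190 CPM in granulosa cells and did not pass (-1.45), but passed as higher in granulosa cells without B20 and D27 (-2.18, edgeR adjusted p = 0.0492).

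In some matrix genes granulosa levels differed between the fates of the follicle. None of 5 tested matrix proteins outside the collagens passed over all pairs. NELL1, a secreted protein rich in cysteine, had 157 to 350 CPM in biopsies. In granulosa cells it had 95.3 to 613 CPM in the blastocyst follicles, highest in B20, and 1.60 to 22.5 CPM in the cleavage follicles. Its log2 fold change was 0.49 in the blastocyst pairs and 5.42 in the cleavage pairs. The matrix genes ABI3BP and COL24A1 had 0.46 and 0.62 in the blastocyst pairs and 5.02 and 4.89 in the cleavage pairs. LAMA2, a laminin chain, had -1.17 and 2.90. Without B20 and D27, NELL1, ABI3BP and COL24A1 were higher in biopsies (3.83, 3.58 and 3.48, each passing), and LAMA2 did not pass.

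Septins, the filament-forming GTPases of the cell cortex, were split, with 4 of 12 tested members higher in biopsies and 5 in granulosa cells and a median log2 fold change of -0.40 (5 and 5 without B20 and D27). SEPT8 had medians of 134 CPM in biopsies and 16.9 CPM in granulosa cells, SEPT11 293 and 90.5 CPM, and SEPT1 50.8 and 0.681 CPM, all 3 without overlap. SEPT10 had medians of 3.06 CPM in biopsies and 75.6 CPM in granulosa cells, also without overlap (log2 fold change -4.66 ± 0.63, edgeR adjusted p = 7.88e-05). SEPT7, the core subunit of septin filaments, did not pass, with 275 and 242 CPM.

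The tRNA synthetases, which charge tRNAs with amino acids, were counted in 2 sets, and the difference between the sets was not tested. Of 8 tested genes of the multisynthetase complex 1 was higher in biopsies (RARS, medians 242 and 111 CPM) and 2 in granulosa cells (KARS, 65.2 and 166 CPM, and QARS, 0.619 and 66.6 CPM), with a median of 0.28. Of 11 genes outside the complex 2 were higher in biopsies (TARS and GARS, the latter not without B20 and D27) and 5 in granulosa cells (AARS, VARS, SARS, HARS and YARS), with a median of -1.38. AARS had 5.73 to 30.2 CPM in biopsies and 28.1 to 91.2 CPM in granulosa cells. Without B20 and D27 the counts were 1 and 2, and 1 and 5.

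Zinc finger genes were the largest list and leaned to the granulosa side. Of 60 tested members 8 were higher in biopsies and 33 in granulosa cells, with a median log2 fold change of -2.12, against 208 and 264 of the 952 tested rows with a symbol and a median of -0.41. ZNF484 had 21.2, 109 and 228 CPM in granulosa cells and 0, 0.126 and 0.393 CPM in biopsies. ZNF845 went the other way, with 143 to 354 CPM in biopsies and 10.4 to 39.8 CPM in granulosa cells, as did ZNF529 and ZNF280D. The counts for the list were 6 and 28 without B20 and D27.

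The listed long noncoding and imprinted RNAs that passed were all on the granulosa side. That does not hold beyond the lists. Of 1193 tested rows that RefSeq types as long noncoding RNA, 180 (15.1%) were higher in biopsies and 320 (26.8%) in granulosa cells. Of the 6 listed long noncoding RNAs 4 were higher in granulosa cells, XIST, DANCR, MEG8 and TUG1, and MEG3 and SNHG3 did not pass. MEG8 (log2 fold change -2.21, edgeR adjusted p = 0.035) did not pass without B20 and D27 (-1.80, edgeR adjusted p = 0.149), which left 3 of the 6. On the imprinted list 4 genes were tested, and 3 were higher in granulosa cells, or 2 without these follicles. Of these 4, XIST, MEG3 and MEG8 were also counted among the 6 long noncoding RNAs. DANCR, a host of small nucleolar RNAs, had 2.26 to 92.6 CPM in granulosa cells and 0 to 1.55 CPM in biopsies (log2 fold change -7.23). TUG1 had medians of 187 and 67.9 CPM and overlapped, with a log2 fold change of -1.49 over all pairs, 0.25 in the blastocyst pairs and -2.55 in the cleavage pairs. SNURF, from the imprinted Prader-Willi locus, had medians of 102 CPM in granulosa cells and 20 CPM in biopsies (log2 fold change -2.25 ± 0.49, edgeR adjusted p = 0.00237). Both ribosomal protein rows with a symbol were higher in granulosa cells: RPL31 had 82.4 to 935 CPM there and 48.2 to 124 CPM in biopsies, and MRPL14 medians of 53.1 and 13.2 CPM.

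Selenoprotein genes changed in both directions. SELENOH, a nuclear redox protein, had 185, 458 and 610 CPM as lowest, median and highest in biopsies and 5.98, 29 and 48.4 CPM in granulosa cells, a log2 fold change of 4.25 ± 0.54 (edgeR adjusted p = 4.69e-05). SEPHS2, which makes the selenium donor for these proteins, was also higher in biopsies without overlap, with medians of 86.6 and 32.9 CPM. SELENOW was higher in granulosa cells, with 152 and 23.7 CPM. Among membrane-bound MARCH ubiquitin ligases 1 of 11 was higher in biopsies (MARCH7, log2 fold change 0.94, edgeR adjusted p = 0.024) and 2 in granulosa cells (MARCH6 and MARCH8). MARCH7 did not pass without B20 and D27 (0.51, edgeR adjusted p = 0.0865), which left none higher in biopsies.

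Odorant receptor genes were almost silent: 10 of 1024 rows were tested, with 3 higher in biopsies and 2 in granulosa cells. OR4B1H had 9.39 to 40.6 CPM in biopsies and 0 to 0.995 CPM in granulosa cells, and OR4X16 2.18 to 41.5 CPM against 0 to 0.514 CPM. OR2A69 had 3011 counts over the 8 biopsies and 2 over the granulosa libraries, a ratio of 1585 (95% counting interval 438 to 13094, exact). Such intervals cover counting error only. Conversely OR10AL42 had 12.5 to 40.4 CPM in granulosa cells and 0.242 to 4.04 CPM in biopsies.

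**Figure D4:**
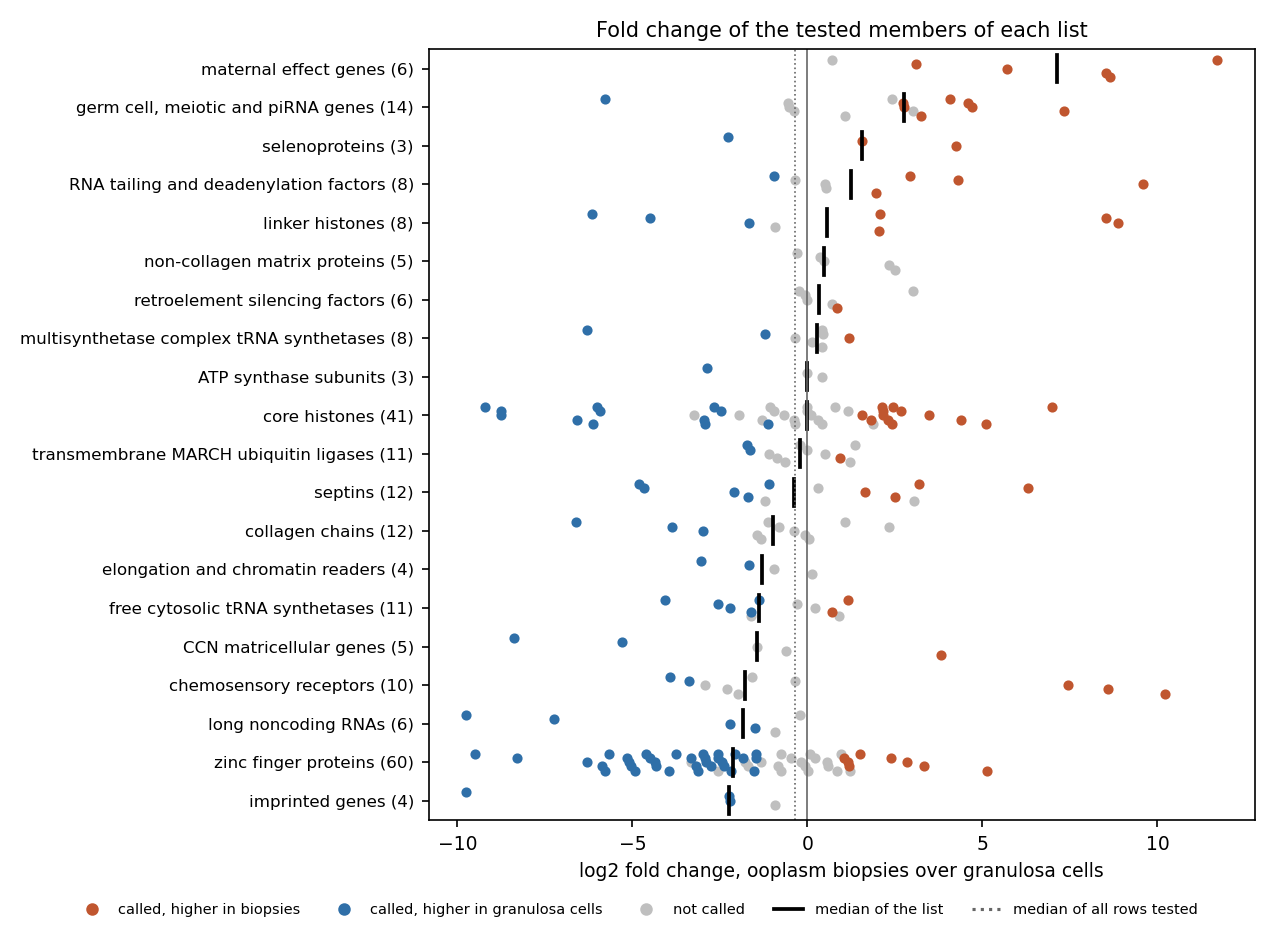
Log2 fold change, biopsies over granulosa cells, of each tested member of 20 gene lists with at least 3 tested members (number in brackets). Colours mark members called at an adjusted p under 0.05 in either direction, black bars the list medians and the dotted line the median of all 20210 rows (-0.37). Maternal effect genes lie farthest right with a median of 7.12, and histones and septins spread to both sides. The list labelled elongation and chromatin readers holds only MKL1, MKL2, NARFL and TROVE2, which that label does not describe.

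Presence and absence were rare as a pattern. A total of 48 rows had at least 5 counts in every biopsy and in no granulosa library, 242 the reverse, and 11025 had them in all 16 libraries. The 4 named rows among the 48 were OR2A69, SOX1, MED14OS and H3C13, named here because they were the only ones and not by the rule for named genes. SOX1, a transcription factor of the neural lineage, had 799 counts in biopsies and 3 in granulosa cells, a ratio of 280 (95% counting interval 95.6 to 1363, exact).

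A group of abundant genes had like mean changes close to 0 while the libraries behind them varied. ATP5MD, a subunit of ATP synthase, had 223, 294 and 427 CPM as lowest, median and highest in biopsies and 74.8, 394 and 474 CPM in granulosa cells (log2 fold change -0.02 ± 0.34), with B20 the low one. KIAA1551, CASC4 and HMGN3 had log2 fold changes of -0.07, -0.12 and -0.20, and in each B20 was the lowest granulosa library. Without B20 and D27, ATP5MD (-0.52, edgeR adjusted p = 0.0342), KIAA1551 (-0.68) and CASC4 (-0.61, edgeR adjusted p = 0.0229) passed as higher in granulosa cells, so their small changes rest on those libraries. GALNTL6 and MAGI2 had 0.00 and 0.06 as well, but from follicles that moved in opposite directions: GALNTL6 had 137 to 791 CPM in blastocyst and 4.27 to 35.3 CPM in cleavage granulosa libraries, with 32.7 to 81.1 CPM in biopsies. Its log2 fold change was -1.71 in the blastocyst pairs and 2.48 in the cleavage pairs.

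Fitted alone, the 4 blastocyst pairs gave 4864 rows higher in biopsies (20.6% of 23650) and 5277 higher in granulosa cells (22.3%), and the 4 cleavage pairs 4553 (24.2% of 18851) and 5048 (26.8%). The blastocyst and cleavage pairs share no library. Of the rows higher in biopsies 3290 were called in both, which is 67.6% of the blastocyst and 72.3% of the cleavage calls, and 6 blastocyst calls were called the opposite way in the cleavage pairs. Of the rows higher in granulosa cells 2372 were called in both, 44.9% and 47.0%, with 71 opposite. A term for a difference between blastocyst and cleavage pairs passed in 1592 rows (7.88%). Among 124 named genes 15 passed, and COL21A1 alone of them had the larger biopsy-over-granulosa value in the blastocyst pairs, with log2 fold changes of -1.41 there and -3.96 in the cleavage pairs. The other 14 included TDRD15 (5.89 and 9.76), H1FOO (7.43 and 10.67) and MORC1 (0.96 and 6.11).

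The whole oocytes and cumulus cells differed in more rows, with 7466 of 17441 higher in oocytes (42.8%) and 8059 higher in cumulus cells (46.2%), or 5840 and 9637 when scaled by library totals. Of the 4477 rows higher in biopsies 3917 (87.5%) were also higher in oocytes than in cumulus cells, which is 52.5% of the oocyte calls, and 204 (4.56%) were higher in cumulus cells. Of the 5858 rows higher in granulosa cells 4369 (74.6%) were higher in cumulus cells, 54.2% of the cumulus calls, and 394 (6.73%) were higher in oocytes. Both comparisons have germ cell tables with NONCODE counts and somatic tables without them. Among the named genes 37 of 40 that were higher in biopsies and 26 of 35 that were higher in granulosa cells were called the same way.

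BCL2L10 averaged 2633 CPM in oocytes and 0.124 CPM in cumulus cells, and CCDC201 332 and 0.138 CPM. H1FOO had 1225 CPM in oocytes and 0.0109 CPM in cumulus cells, and TDRD15 1797 and 0.0581 CPM (the second comparison was scaled on its own libraries). XIST had 0.436 CPM in oocytes and 262 CPM in cumulus cells. The genes that turned were few. GARS was lower in oocytes than in cumulus cells (log2 fold change -0.66, edgeR adjusted p = 0.0083) and higher in biopsies than in granulosa cells (0.71). MDGA2, ZCCHC11, SEPT4 and ZSCAN21 were higher in oocytes than in cumulus cells (1.66, 0.77, 1.43 and 0.77) and lower in biopsies than in granulosa cells (-1.22, -0.95, -1.69 and -1.47). H3F3B, which did not pass in the pairs, was higher in oocytes (2682 CPM) than in cumulus cells (336 CPM). H2AFZ remained lower in the germ cell, with 18.6 CPM in oocytes and 271 CPM in cumulus cells.

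**Figure D5:**
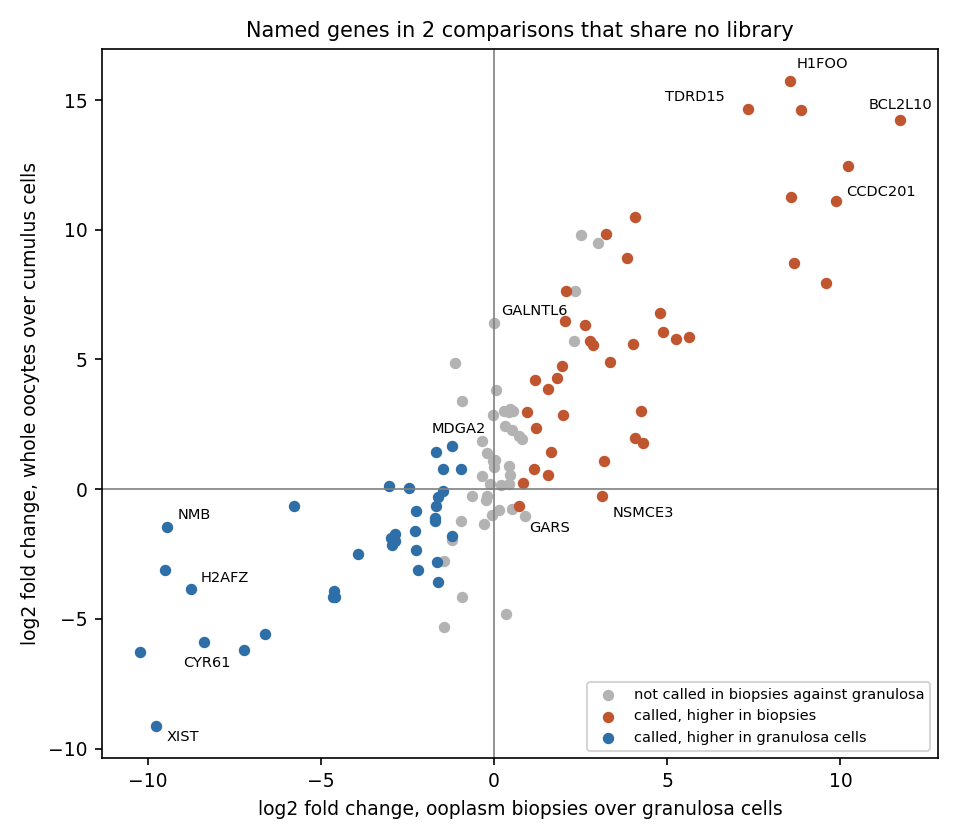
Log2 fold change of the 117 named genes tested in both comparisons, biopsies over granulosa cells on the x axis and whole oocytes over cumulus cells on the y axis. Colours show the call in biopsies against granulosa cells. GARS and NSMCE3 lie right of and below the axes, and MDGA2 left of and above them.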

How the data were processed

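SMART-Seq HT cDNA and Nextera XT library kits were used, per the labels' protocols. Trim Galore, cutadapt, STAR and featureCounts are named in the submitters' processing notes, without versions. The build and the strand setting were not given in the sources used here. Each value that the authors deposited is a whole-number count per row and library, used unchanged. NONCODE rows were left out. Symbols came from the tables and, for 1105 LOC rows, from RefSeq (ARS-UCD2.0), used for names only. Ensembl rows stayed unnamed.

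The test was edgeR 4.0.16 (R 4.3.3) with filterByExpr, TMM scaling, a robust quasi-likelihood fit, the follicle as a block and an adjusted p under 0.05. The SE given with a log2 fold change is an approximation: its absolute value divided by the square root of the F value of the test. The pairing rests on the labels: across rows, the departures of a follicle's biopsy and granulosa library from their groups had correlations of -0.0192 to 0.162 (mean 0.0577, 8 pairs), and those of different follicles -0.171 to 0.159 (56 pairs). CPM are relative to the whole library and not to gene length, so levels are compared within a gene only. Alternatives were other scalings, filters, thresholds and subsets, DESeq2 1.42.0, and a fit without the block. Tables and figures used Python 3.11.15, pandas 2.3.3 and matplotlib 3.10.9. No 2 libraries of a group agreed within counting noise (chi-square per degree of freedom 61.2 or more). In 3 simulated data sets (19574 rows or more) 200 rows were changed, with no difference between follicles. The same fit recovered 0% to 2% of rows changed 2-fold, 12% to 30% at 4-fold, 42% to 60% at 8-fold and 72% to 90% at 32-fold. In the data 51.1% of rows passed, and the adjustment depends on that share. The simulated rates are therefore not the sensitivity of the comparison itself.

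Members and lists were chosen with earlier results of these data known, and no list was tested as a set. Named genes are the 12 symbol rows of highest level in each direction that passed without overlap, up to 6 tested members of highest level per list, markers with a row, and the 6 symbol rows over 100 CPM with the smallest change. Other list members are named to account for the counts. Of 31 lists 9 had no row, among them steroid synthesis, zona, theca, endothelial, leukocyte and erythroid genes. The polar body DNA files were not used here.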

Additional observations from a re-analysis of the deposited data

Results flagged for a closer look

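In 10 of 64 groups of 8 libraries checked, 1 library lay far from the other 7, where chance gives about 5% of independent groups. These groups reuse the same 16 libraries, and most of the flags were of granulosa library B20. The 10 flags are therefore not separate events to be set against that 5%. Granulosa library B20 was low for ATP5MD (74.8 CPM), H2AFZ (132 CPM), KIAA1551 (19.2 CPM), NMB (52.8 CPM), PCBP1 (5.84 CPM) and XIST (91.8 CPM), and granulosa library D27 for ATE1OS (6.75 CPM). Among biopsies, D24 was low for CASC4 (52.6 CPM), B23 for MAGI2 (39.997 CPM) and D10 in its number of detected rows (16987).

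In 15 of 124 named genes the difference between the cell types was not the same in blastocyst and cleavage pairs, by an interaction term in edgeR (adjusted p under 0.05). The blastocyst minus cleavage difference of the log2 fold changes was positive in COL21A1 alone (1.99). This term was fitted over all 16 libraries with 1 scaling, so it is not the exact difference of the fold changes from fits of each fate alone. It was negative in the germ cell genes MORC1 (-5.72), C5H12orf40 (-4.83), TDRD15 (-4.51) and RNF17 (-3.88), and in H1FOO (-3.88) and CCDC201 (-2.95). The matrix genes NELL1 (-5.49), COL25A1 (-5.15), ABI3BP (-5.12), COL24A1 (-4.84), COL19A1 (-4.66) and LAMA2 (-4.63) were negative too, as were GALNTL6 (-4.75) and MAGI2 (-3.22). In these 14 genes the median granulosa level was higher in the blastocyst follicles, and B20 was the highest granulosa library.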

How the results depend on the processing

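The counts of 10335 calls, 4477 higher in biopsies and 5858 in granulosa cells, stayed within 1.5 times under most alternatives. Without the replicate block, with fate as the covariate, the paired labels being ignored, the numbers were 10856, 4854 and 6002. Leaving out 1 follicle gave 9185 to 10691 calls, 3868 to 4632 in biopsies and 5189 to 6059 in granulosa cells. The 4 B pairs alone gave 5023 calls (2403 and 2620) and the 4 D pairs alone 6742 (2827 higher in biopsies). The 4 blastocyst pairs alone gave 10141 calls and the 4 cleavage pairs alone 9601. What lowered the counts in the B and D pairs was not tested. DESeq2, on every row with a count, gave 9070 higher in granulosa cells, and a 4-fold minimum left 2980 higher in biopsies. Oocytes against cumulus cells gave 15525 calls, and 15607 to 15946 without 1 oocyte. With libraries not thinned, the difference in detected rows was -4054.29 to -2722 without 1 follicle, passing without B14. That in the share of the 10 most abundant rows was -3.77 to -2.05 percentage points, passing without B20 (-3.77).

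Of 2476 values of 124 named genes, 2300 kept direction and side of the threshold, 107 no longer passed, 64 newly passed and 5 turned, all in the blastocyst pairs alone, which were scaled separately: GALNTL6 (-1.71), KARS (0.00985), REST (1.61), TUG1 (0.25) and ZCCHC11 (0.0855). The causes were not tested. Of 80 named genes called, 45 were called under every alternative. The planned count of promoter motifs was not run. Of 426 rows under 1 CPM 1.64% were called higher in biopsies and 21.8% in granulosa cells.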
